A study of Mus musculus with 30 samples.

Results

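The immune checkpoint genes described here are 10 of the 55291 gene symbols in the expression table, chosen by name. They are the inhibitory receptors Pdcd1 (PD-1), Ctla4, Lag3, Havcr2 (TIM-3), Tigit and Cd96, the transcription factor Tox, the ligands Cd274 (PD-L1) and Pdcd1lg2 (PD-L2), and Vsir (VISTA). All 10 were among the 17944 genes that reached 1 TPM (a length-scaled share of all transcripts in a library) in at least 3 libraries and were tested. Cd3e, a chain of the CD3 complex that T cells carry, was the T cell reference for the 6 receptors. RNA-seq was done on subcutaneous mouse tumours taken at a length of 10 mm, with 3 libraries for each of 10 lines, all labelled as CD45+ immune cells of the tumour. The lines were MC38OVA (the colon carcinoma MC38 carrying ovalbumin), MC38 itself, CT26NYESO1 (the colon carcinoma CT26 with NY-ESO-1, a human tumour antigen), CT26 itself, EMT6 (mammary carcinoma), LL2 (Lewis lung carcinoma), CMS5a (fibrosarcoma), Renca (renal carcinoma), and the melanoma sublines B16F10 and B16F1. The labels mention BALB/cJ and C57BL/6J hosts, and tumours with or without OK-432, a killed streptococcal preparation, for 24 hours. They tie neither to a library, so neither was a group here. Where host strain or OK-432 goes with the line, its part cannot be told apart from that of the line. Nothing in them says that replicates came from separate mice or that the antigen-bearing lines are single clones, so p-values measure the spread among these samples, which may be technical.

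Checkpoint receptors are brakes on lymphocytes. PD-1 on activated T cells binds PD-L1 and PD-L2, which tumour cells and myeloid cells can make and which interferon-gamma induces. CTLA-4 competes with CD28 for CD80 and CD86 and is abundant on regulatory T cells, LAG-3 binds MHC class II, and TIGIT and CD96 compete with CD226 for the poliovirus receptor and related nectins on T and NK cells. TIM-3 is carried by exhausted T cells and also by dendritic cells and macrophages, and VISTA is highest on myeloid cells. TOX drives the programme of T cell exhaustion, in which several of these receptors are made together.

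Cd274 and Pdcd1lg2 are neighbours on chromosome 19 of mm10, Cd274 at chr19:29367455-29388095 and Pdcd1lg2 at chr19:29410919-29471161, both on the plus strand. Tigit (chr16:43648867-43664146) and Cd96 (chr16:46035657-46120251) share chromosome 16 and the minus strand. The remaining members are spread over the genome, with Ctla4 at chr1:60887000-60915832, Pdcd1 at chr1:94038305-94052553, Lag3 at chr6:124904361-124911705, Havcr2 at chr11:46454935-46481255, Vsir at chr10:60346851-60372684 and Tox at chr4:6686353-6991557. All 10 are annotated as protein coding.

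The promoters of the neighbouring ligands and of Cd96 are shown, the ligands because they moved together across the lines and with interferon-gamma response genes, as the values further on show, and Cd96 because it held the most matches to AANNGAAA of the 8 members with a promoter. They are the 250 bases before the RefSeq start (GRCm38.p6), 5′ to 3′ on the strand of the gene. Cd274 is chr19:29367188-29367437 (plus), Pdcd1lg2 is chr19:29410669-29410918 (plus) and Cd96 is chr16:46120249-46120498 (minus). Capitals mark AANNGAAA, a core of sites for interferon regulatory factors, searched on both strands.
Cd274: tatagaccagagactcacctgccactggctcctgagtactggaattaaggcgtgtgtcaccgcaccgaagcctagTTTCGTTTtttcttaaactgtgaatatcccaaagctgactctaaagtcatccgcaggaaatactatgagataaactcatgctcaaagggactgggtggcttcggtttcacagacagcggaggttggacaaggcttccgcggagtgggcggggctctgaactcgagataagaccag
Pdcd1lg2: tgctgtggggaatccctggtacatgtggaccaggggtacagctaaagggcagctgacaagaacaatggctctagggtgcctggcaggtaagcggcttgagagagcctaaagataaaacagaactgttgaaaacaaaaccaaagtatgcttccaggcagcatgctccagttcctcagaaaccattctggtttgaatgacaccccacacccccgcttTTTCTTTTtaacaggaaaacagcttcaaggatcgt
Cd96: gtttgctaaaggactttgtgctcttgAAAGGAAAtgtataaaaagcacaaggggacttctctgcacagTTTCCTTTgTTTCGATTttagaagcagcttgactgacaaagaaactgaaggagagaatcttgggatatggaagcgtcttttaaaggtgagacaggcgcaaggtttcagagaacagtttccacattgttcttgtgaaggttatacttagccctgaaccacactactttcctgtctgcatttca
The capitals in Cd274 and Pdcd1lg2 are 1 match each to AANNGAAA on the opposite strand, and Cd96 had 3 matches to it, 1 of them on its own strand. Of the 8 members with a promoter in the RefSeq table, 4 held AANNGAAA (Pdcd1, Cd96, Cd274 and Pdcd1lg2), where 21.31% of 32851 promoters of this length did. Only Havcr2 among those 8 held TGANTCA, a site for AP-1 factors found in 6.749%. Lag3 and Tox had no entry. A match describes letters in this window and was not tested as a site.

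The libraries differed in how much leukocyte and other RNA they held. Ptprc, which encodes CD45 itself, was between 2.7 and 215 TPM, highest in MC38OVA (154 ± 64.0 TPM, SD, n = 3) and lowest in B16F10 (5.39 ± 2.83 TPM). RNA of other cells was present despite the CD45+ label. The sum of 4 melanocyte genes was 8623 to 12462 TPM in B16F10 and 1372 to 6435 TPM in B16F1, and at most 1.28 TPM in the other lines. The sum of 4 epithelial genes reached 2130 TPM in Renca and 706 TPM in EMT6, and that of 5 fibroblast genes 5088 TPM in CMS5a. Mitochondrial transcripts took 9.17% to 39.0% of TPM. The highest share was in B16F1 replicate 2, against 12.1% and 18.6% in replicates 1 and 3 of that line. In 3 lines 1 library stood far apart in T cell RNA. B16F1 replicate 2 had 4.04 TPM of Cd3e against 0.520 and 0.510 TPM in replicates 1 and 3 of that line, and EMT6 replicate 1 had 0.123 TPM against 2.37 and 2.14 TPM. B16F10 replicate 3 had 2.88 TPM against 0.428 and 0.887 TPM, and its sum of 2 CD8 genes was 6.93 TPM against 1.06 and 1.83 TPM. In CT26 the gap in Cd3e was smaller in ratio, with 2.45 TPM in replicate 2 against 5.64 and 6.31 TPM. The CD8 sum of that library was 2.98 TPM against 9.22 and 10.3 TPM. It was left out singly but not together with the libraries above. TPM keep no read counts, so sequencing depth cannot be read from them and no counting intervals are given.

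All 10 checkpoint genes differed among the lines. In an F test over the 10 line means of log2(TPM + 1), 10 of 10 passed an adjusted p under 0.05 with a difference of at least 1 between the highest and lowest line, and so did 85.5% of all genes, so the count alone says little. The adjusted p ran from 5.61e-12 for Havcr2 to 1.40e-05 for Ctla4 (limma, Benjamini-Hochberg). The median difference between the highest and the lowest line was 2.95 on the log2 scale over the members and 1.71 over all genes. In mean TPM, MC38OVA was highest in every member except Tigit, which was highest in CT26. On the log2(TPM + 1) scale Vsir had its highest mean in LL2 (5.79, against 5.77 in MC38OVA). The lowest level was in Renca, B16F10, CMS5a or EMT6 according to the gene.

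**Figure D1:**
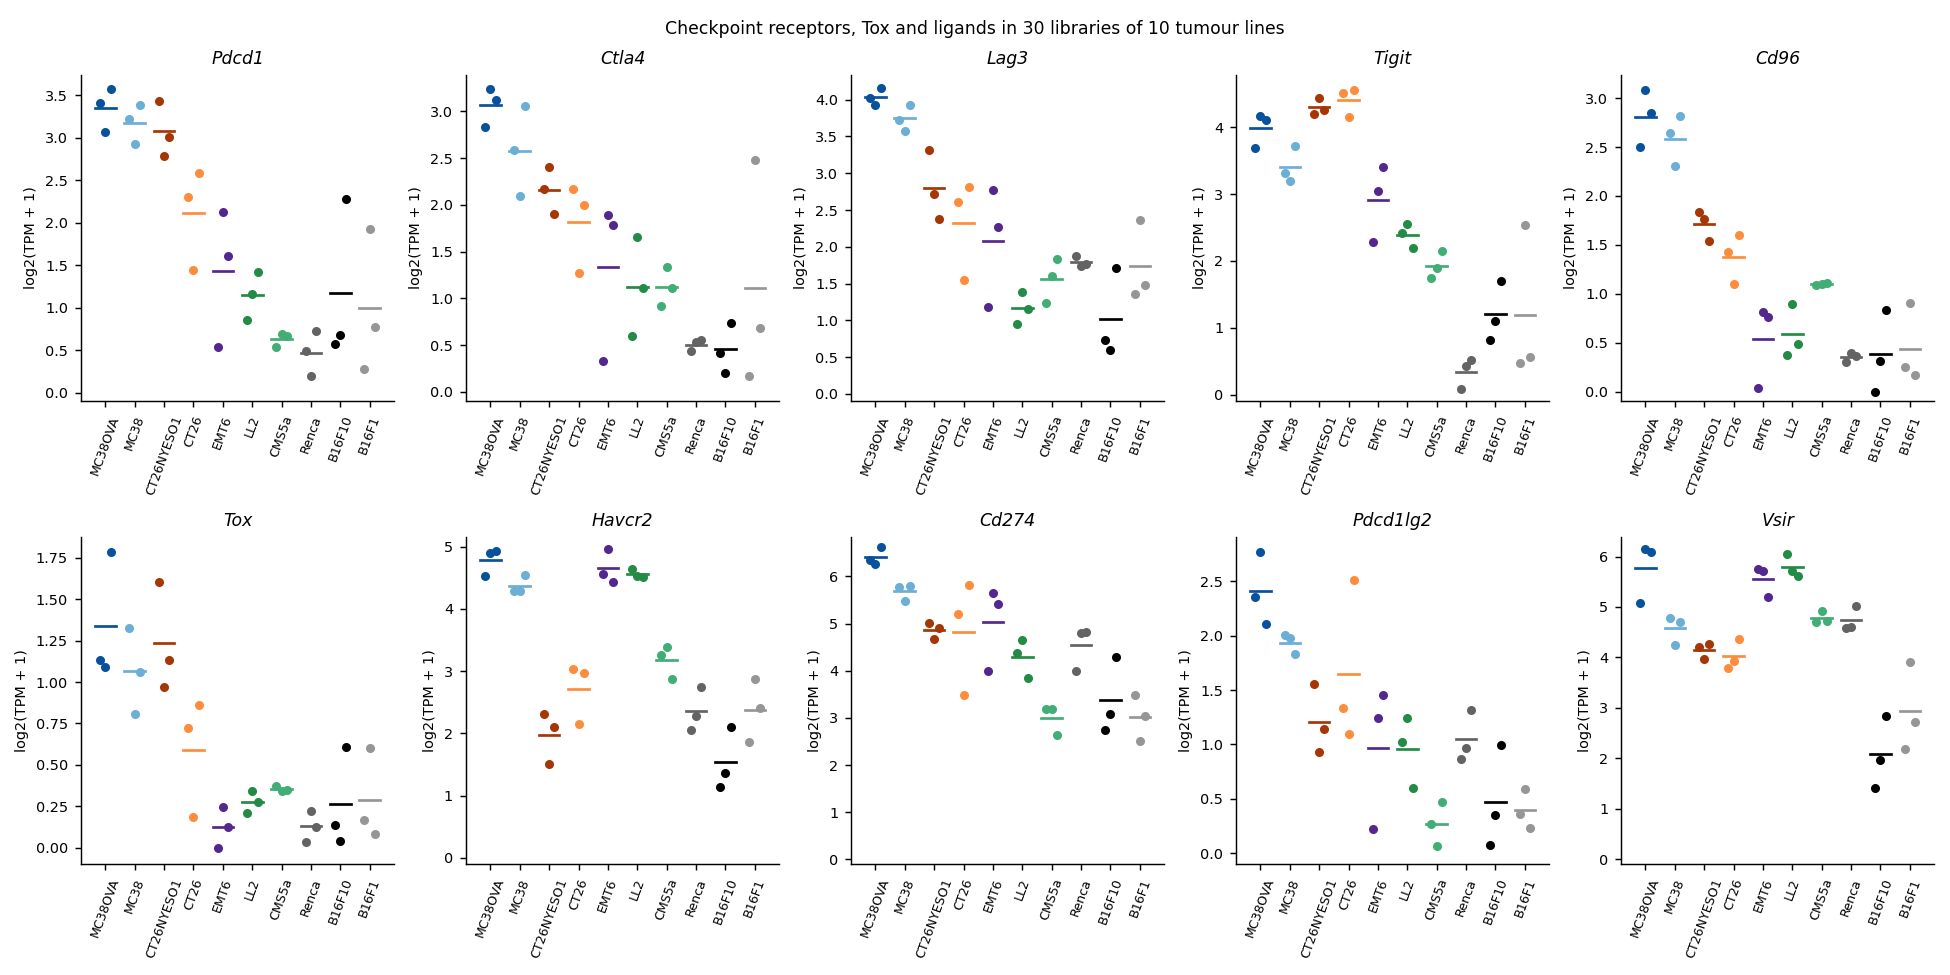
Level of each checkpoint gene in log2(TPM + 1) on the vertical axis, by tumour line on the horizontal axis; dots are the 3 libraries of a line and the bar is their mean, and each panel has its own scale. Pdcd1, Ctla4, Lag3 and Cd96 share high levels in MC38OVA and MC38, Tigit is also high in both CT26 lines, and Havcr2 and Vsir are also high in EMT6 and LL2.

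Each line was then set against the mean of the other 9, with a call at an adjusted p under 0.05 over all genes and a log2 fold change of at least 1. Of the 100 combinations of member and line, 22 were higher and 16 lower, where 8.71% and 8.09% of all combinations of gene and line were. The 2 MC38 lines held 15 of the 22. In MC38OVA 9 of the 10 members were higher, all except Tox, where 10.2% of genes were. In MC38 6 were higher (Pdcd1, Ctla4, Lag3, Havcr2, Cd96 and Cd274), where 8.24% of genes were. The other higher calls lay in 4 lines. CT26NYESO1 was higher in Pdcd1 and Tigit (2 of 10, 6.84% of genes) and lower in Havcr2 (1 of 10, 5.71%), and CT26 was higher in Tigit (1 of 10, 8.25%). EMT6 was higher in Havcr2 and Vsir (2 of 10, 10.2%), as was LL2 (2 of 10, 7.98%), and LL2 was lower in Lag3 (1 of 10, 6.53%).

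On the low side, B16F10 was lower in 6 of 10 (Ctla4, Lag3, Havcr2, Tigit, Cd274 and Vsir), where 23.2% of all genes were lower. B16F1 was lower in Tigit, Cd274 and Vsir (3 of 10, 13.2%), Renca in Pdcd1, Ctla4 and Tigit (3 of 10, 10.5%), and CMS5a in Pdcd1 and Cd274 (2 of 10, 4.49%). The B16F10 comparison moves with scaling. Rescaling libraries by the median ratio of genes shifted its median gene by 0.41 on the log2 scale (0.16 in B16F1, -0.15 in EMT6, -0.13 in MC38 and CMS5a, -0.11 in CT26NYESO1 and under 0.1 in the others) and took the share of higher genes among its calls to 36.2%, against 18.6% unscaled, so its low values are relative to that shift. Cd274 in B16F10 was called at -1.26 ± 0.34 (SE) and lost its call on that scale and without replicate 1 of that line. In bulk RNA, fewer cells of a type and less RNA per cell cannot be told apart, here and in all that follows.

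**Figure D2:**
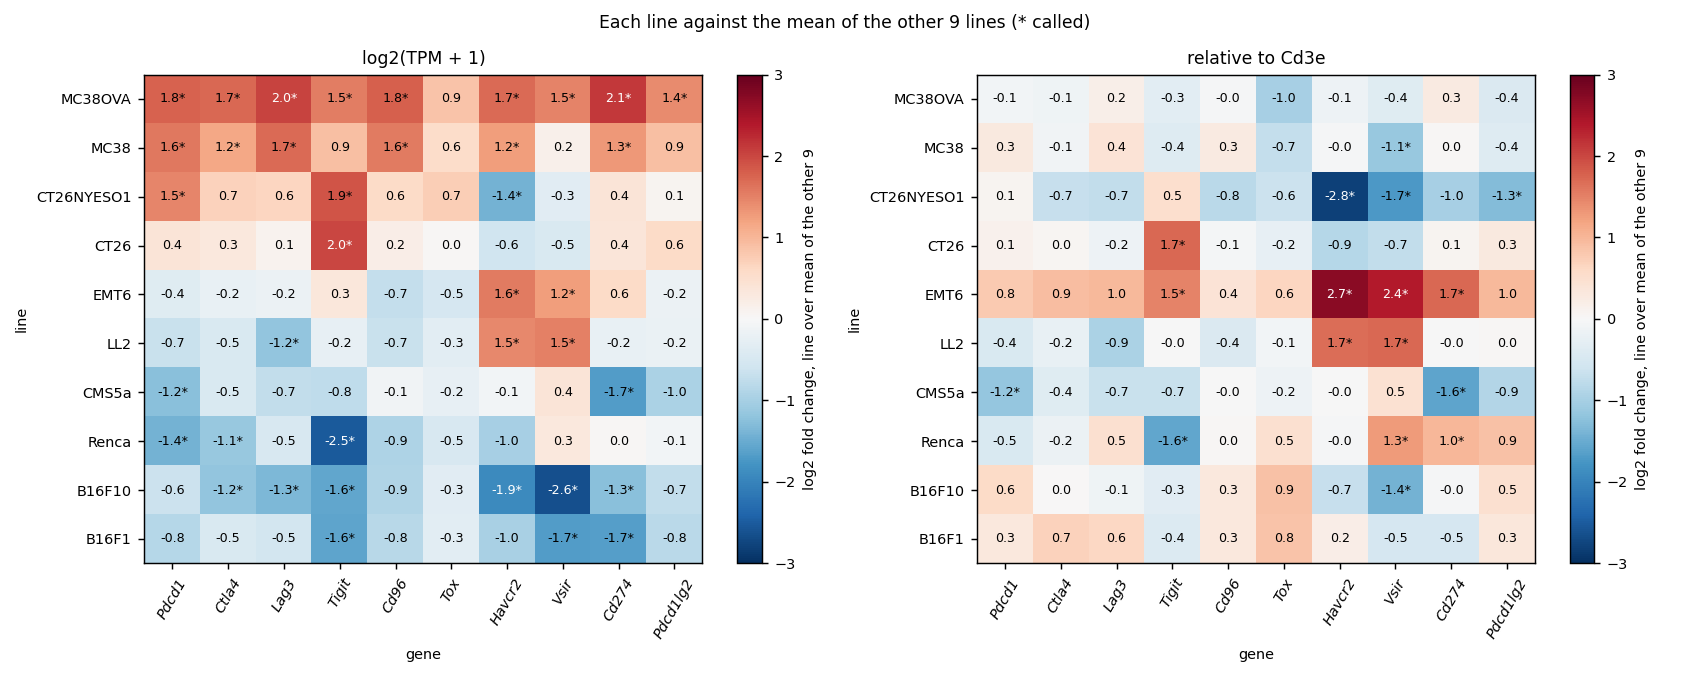
Log2 fold change of each line (rows) over the mean of the other 9 for each gene (columns), in log2(TPM + 1) at the left and after subtracting Cd3e of the same library at the right; red is higher, blue lower, and a star marks a call. The many stars of MC38OVA and MC38 at the left have no counterpart at the right. Their only star there marks a lower value, Vsir in MC38, which has no star at the left. In that comparison 64.3% of all genes were lower. The receptors at the right have stars for Havcr2 in EMT6, LL2 and CT26NYESO1, Tigit in CT26, EMT6 and Renca, and Pdcd1 in CMS5a.

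Pdcd1, the PD-1 receptor, had 9.63, 7.42 and 10.9 TPM in the 3 MC38OVA libraries, 8.32, 6.63 and 9.45 TPM in MC38, and 9.78, 5.92 and 7.08 TPM in CT26NYESO1. These 3 lines overlapped each other and stood above CT26 (3.95, 1.72 and 5.0 TPM), the next line down. At the other end were CMS5a with 0.457, 0.616 and 0.594 TPM and Renca with 0.404, 0.146 and 0.658 TPM. The line means spanned 9.32 ± 1.77 to 0.403 ± 0.256 TPM (SD, n = 3). Against the other 9 lines Pdcd1 differed by 1.77 ± 0.31 in MC38OVA, 1.58 ± 0.31 in MC38 and 1.47 ± 0.31 in CT26NYESO1 (log2 fold change ± SE, adjusted p 2.97e-05, 0.000140 and 0.000313, limma). It was lower in CMS5a (-1.25 ± 0.31, adjusted p 0.00155) and Renca (-1.43 ± 0.31, adjusted p 0.000255). B16F10 replicate 3, with 3.84 TPM against 0.488 and 0.598 TPM in the other two libraries of that line, was the highest Pdcd1 value among the melanomas. It is the library also high in Cd3e and CD8 RNA, and without it the mean of that line was 0.543 instead of 1.64 TPM.

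Ctla4, the CTLA-4 receptor, had 6.14, 8.45 and 7.74 TPM in MC38OVA and 5.02, 3.26 and 7.34 TPM in MC38, overlapping ranges. It was lowest in B16F10 (0.340, 0.155 and 0.666 TPM) and Renca (0.353, 0.447 and 0.467 TPM). Only CMS5a and Renca, of the 9 pairs of neighbours in the order of line means, had ranges that did not overlap. The fold changes were 1.71 ± 0.31 in MC38OVA, 1.17 ± 0.31 in MC38, -1.13 ± 0.31 in Renca and -1.19 ± 0.31 in B16F10 (adjusted p 6.20e-05, 0.00348, 0.00289 and 0.00154). The call in MC38 was lost without replicate 3 of that line, its highest library. B16F1 had 0.128, 4.59 and 0.607 TPM, so that 1 library, the one also high in Cd3e, set its mean of 1.77 ± 2.45 TPM.

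Lag3, the MHC class II receptor, had 15.3, 14.3 and 16.9 TPM in MC38OVA and 12.3, 10.9 and 14.3 TPM in MC38, and all 6 libraries lay above every library of the other 8 lines. CT26NYESO1 followed with 8.94, 5.60 and 4.19 TPM. The fold changes were 2.02 ± 0.27 in MC38OVA and 1.69 ± 0.27 in MC38 (adjusted p 6.54e-07 and 1.02e-05). Lag3 was lower in LL2 (0.936, 1.62 and 1.22 TPM, -1.18 ± 0.27, adjusted p 0.000695) and B16F10 (0.670, 0.506 and 2.28 TPM, -1.35 ± 0.27, adjusted p 8.79e-05).

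Tigit and Cd96 share ligands but differed in order. Tigit was highest in CT26 (21.8, 16.8 and 22.7 TPM) and CT26NYESO1 (17.4, 20.8 and 18.1 TPM), ahead of MC38OVA (11.9, 17.0 and 16.2 TPM), whose range CT26NYESO1 did not overlap. It was lowest in Renca, with 0.0557, 0.339 and 0.438 TPM, below every library of the next line, B16F10 (0.768, 1.14 and 2.23 TPM). The mean in CT26 was 73.5 times that in Renca, the widest span of the 10 members. Fold changes were 2.0 ± 0.27 in CT26, 1.88 ± 0.27 in CT26NYESO1, 1.53 ± 0.27 in MC38OVA and -2.52 ± 0.27 in Renca (adjusted p 7.61e-07, 2.20e-06, 3.76e-05 and 7.99e-09). Both melanomas were lower, B16F10 by -1.56 ± 0.27 and B16F1 by -1.58 ± 0.27 (adjusted p 1.45e-05 and 1.69e-05), although B16F1 replicate 2 had 4.82 TPM against 0.383 and 0.474 TPM.

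Cd96 instead was highest in MC38OVA (4.67, 7.5 and 6.18 TPM) and MC38 (5.23, 3.94 and 6.04 TPM), and none of these 6 libraries overlapped any other line. CT26NYESO1 had 2.56, 2.40 and 1.9 TPM and CT26 1.69, 1.14 and 2.03 TPM. The fold changes were 1.80 ± 0.17 in MC38OVA and 1.55 ± 0.17 in MC38 (adjusted p 2.33e-09 and 3.46e-08), and no line was called lower. Levels elsewhere were near 1 TPM or under it, down to 0 in B16F10 replicate 1. The ratio of Tigit to Cd96, in TPM, was 12.97 ± 1.80 in CT26 and 8.33 ± 1.37 in CT26NYESO1, against 2.48 ± 0.185 in MC38OVA and 1.94 ± 0.205 in MC38 (SD, n = 3). In Renca it was 0.238, 1.08 and 1.52.

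Tox, the exhaustion factor, was the lowest of the 10 members, at 1 TPM or more in 7 of 30 libraries. MC38OVA had 1.20, 1.13 and 2.45 TPM, CT26NYESO1 2.05, 0.961 and 1.19 TPM and MC38 1.51, 0.750 and 1.09 TPM. EMT6 had 0, 0.183 and 0.0887 TPM and Renca 0.0251, 0.168 and 0.0904 TPM. No neighbours in the order of its line means were separate. It passed the F test (adjusted p 1.42e-06) but no single line was called, and in MC38OVA it missed the fold threshold and not the p (0.86 ± 0.15, adjusted p 3.3e-05). A pseudocount of 1 shrinks fold changes at such levels. With a pseudocount of 0.1 the lower combinations over all members numbered 28 instead of 16.

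Havcr2, the TIM-3 receptor, followed another order. It was high in MC38OVA (22.0, 28.7 and 29.5 TPM), EMT6 (22.7, 30.1 and 20.5 TPM), LL2 (23.8, 22.0 and 21.8 TPM) and MC38 (18.5, 18.6 and 22.3 TPM), and these 12 libraries lay above all 18 others. It was lowest in B16F10 (1.20, 1.58 and 3.31 TPM) and CT26NYESO1 (3.98, 1.86 and 3.29 TPM). EMT6 replicate 1 had 22.7 TPM of Havcr2 beside 0.123 TPM of Cd3e, and the cell source was not tested. Fold changes were 1.70 ± 0.21 in MC38OVA, 1.56 ± 0.21 in EMT6, 1.45 ± 0.21 in LL2, 1.25 ± 0.21 in MC38, -1.41 ± 0.21 in CT26NYESO1 and -1.90 ± 0.21 in B16F10, with the largest adjusted p 2.74e-05, in MC38.

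Vsir, the VISTA gene, was high in the same 3 lines that led Havcr2. LL2 had 65.0, 51.7 and 48.0 TPM, EMT6 52.7, 51.7 and 35.9 TPM and MC38OVA 33.0, 69.7 and 67.0 TPM. The melanomas were lowest, B16F10 with 1.67, 2.93 and 6.11 TPM and B16F1 with 3.56, 14.1 and 5.57 TPM. Fold changes were 1.5 ± 0.26 in LL2, 1.48 ± 0.26 in MC38OVA, 1.24 ± 0.26 in EMT6, -1.67 ± 0.26 in B16F1 and -2.63 ± 0.26 in B16F10 (largest adjusted p 0.000241, in EMT6). The 3 higher calls rest on the melanomas in the mean of the other lines. With B16F1 and B16F10 left out they were 0.996 in LL2, 0.97 in MC38OVA and 0.73 in EMT6, all under the threshold of 1. Of the 7 macrophage and monocyte markers, which sum to 821 to 1088 TPM in LL2, 479 to 731 TPM in EMT6, 761 to 1985 TPM in MC38OVA, 187 to 303 TPM in B16F1 and 48.5 to 166 TPM in B16F10, all averaged 1 TPM or more in every line. Their part in the levels of Vsir and Havcr2 was not tested.

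The PD-1 ligands were highest in the MC38 lines and lowest in CMS5a and the melanomas. Cd274 had 80.9, 75.6 and 97.6 TPM in MC38OVA and 53.9, 43.5 and 54.6 TPM in MC38, ranges that did not overlap, while the other 8 pairs of neighbours in the order overlapped. CMS5a had 8.08, 8.13 and 5.26 TPM, B16F1 10.2, 4.67 and 7.21 TPM and B16F10 5.69, 7.51 and 18.6 TPM. Fold changes were 2.12 ± 0.34 in MC38OVA, 1.31 ± 0.34 in MC38, -1.66 ± 0.34 in CMS5a and -1.66 ± 0.34 in B16F1 (adjusted p 1.01e-05, 0.00262, 0.000220 and 0.000155). Libraries of 1 line could differ widely. CT26 had 36.0, 10.1 and 55.1 TPM and EMT6 15, 49.6 and 42.0 TPM. The B16F1 library rich in Cd3e was the poorest in Cd274 of the 30.

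Pdcd1lg2 had 4.11, 5.82 and 3.30 TPM in MC38OVA and 3.01, 2.93 and 2.56 TPM in MC38, again without overlap. CMS5a had 0.207, 0.0493 and 0.390 TPM. MC38OVA was the only line called (1.42 ± 0.23, adjusted p 1.42e-05). The Cd274 level exceeded that of Pdcd1lg2 in all 30 libraries, in TPM, which are per length, by a ratio of 18.02 ± 3.24 in MC38 and 20.8 ± 8.35 in MC38OVA (SD, n = 3). Renca had its Cd274 level in the middle of the order of lines beside the lowest Pdcd1 mean. Its Cd274 was 14.9, 26.9 and 27.4 TPM with Pdcd1 of at most 0.658 TPM, a ratio of 36.9, 185 and 41.6, against 3.19, 4.16 and 4.09 in CT26NYESO1.

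Set against Cd3e in the same library, the span of line means was narrower for 5 of the 6 receptors. The measure was log2(TPM + 1) of the receptor minus that of Cd3e. The added 1 shrinks it where both are under 1 TPM, as for Pdcd1 in B16F1 replicate 1 (0.217 TPM, Cd3e 0.520 TPM). Part of the narrowing can come from this. As a plain ratio of TPM, the line mean of Pdcd1 over Cd3e ran from 0.162 in CMS5a to 2.04 in EMT6, where 1 library has Cd3e near 0. Cd3e itself was higher in MC38OVA (12.3, 11.8 and 17.8 TPM, fold change 1.84 ± 0.32, adjusted p 3.42e-05), MC38 (1.28 ± 0.32) and CT26NYESO1 (1.39 ± 0.32). The highest line exceeded the lowest by 1.75 for Pdcd1, 1.46 for Ctla4, 1.73 for Lag3, 2.96 for Tigit and 1.11 for Cd96, against 2.88, 2.61, 3.02, 4.07 and 2.46 without Cd3e, and by 4.95 for Havcr2, against 3.25. On this scale the F test called 3 of 6 receptors, Havcr2, Tigit and Lag3 (adjusted p 5.23e-17, 5.21e-07 and 0.0199), and missed Pdcd1 (adjusted p 0.070), Ctla4 (0.25) and Cd96 (0.60). Without the 3 libraries that stand apart in T cell RNA it called 6 of 6. It called 99.4% of all genes, since subtracting Cd3e gives its own variation to every gene. Of 60 combinations of receptor and line 7 were called, where 45.9% of all combinations of gene and line were. In MC38OVA and MC38 0 of 6 receptors were called, also at an unadjusted p under 0.05 (limma), where 87.9% and 65.5% of genes were called. The melanomas also had 0 of 6, called or at an unadjusted p under 0.05 (limma), where 51.3% of genes were called in B16F1 and 36.9% in B16F10.

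Havcr2 relative to Cd3e was higher in EMT6 (2.7 ± 0.42, adjusted p 1.68e-09), where 62.9% of genes were, and in LL2 (1.68 ± 0.42, adjusted p 0.00101), where 9.57% were. It was lower in CT26NYESO1 (-2.80 ± 0.42, adjusted p 4.91e-10), where 74.7% of genes were. As plain ratios of TPM, Havcr2 was 185, 12.7 and 9.57 times Cd3e in EMT6, where the first has Cd3e near 0, 11.6, 6.46 and 5.61 times in LL2, and 0.267, 0.214 and 0.422 times in CT26NYESO1. Without EMT6 replicate 1 the EMT6 value was 2.23 and still called. The LL2 call was lost without LL2 replicate 1 (1.44, adjusted p 0.0581) and with a pseudocount of 0.1.

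Tigit relative to Cd3e was higher in CT26 (1.73 ± 0.41, adjusted p 0.000610), where 4.74% of genes were, and in EMT6 (1.48 ± 0.41, adjusted p 0.00113), where 62.9% were. It was lower in Renca (-1.56 ± 0.41, adjusted p 0.000753), where 2.32% of genes were. The TPM ratio of Tigit to Cd3e was 3.87, 6.86 and 3.59 in CT26 and 0.0624, 0.160 and 0.240 in Renca, while in MC38OVA it was 0.969, 1.45 and 0.910. All 3 Renca libraries lay below all 27 others in this ratio. Without EMT6 replicate 1, whose ratio was 31.6, EMT6 was at 1.28 (adjusted p 0.0273). Pdcd1 relative to Cd3e was lower in CMS5a (-1.17 ± 0.41, adjusted p 0.0384), where 2.91% of genes were, with ratios of 0.148, 0.188 and 0.150 against 0.786, 0.631 and 0.613 in MC38OVA. The CMS5a call was lost without any 1 of its own 3 libraries (adjusted p 0.151 to 0.185), without MC38 replicate 3 (0.0503) or MC38OVA replicate 1 (0.0501), on the median-ratio scale (0.0647) and with no filter on low genes.

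**Figure D3:**
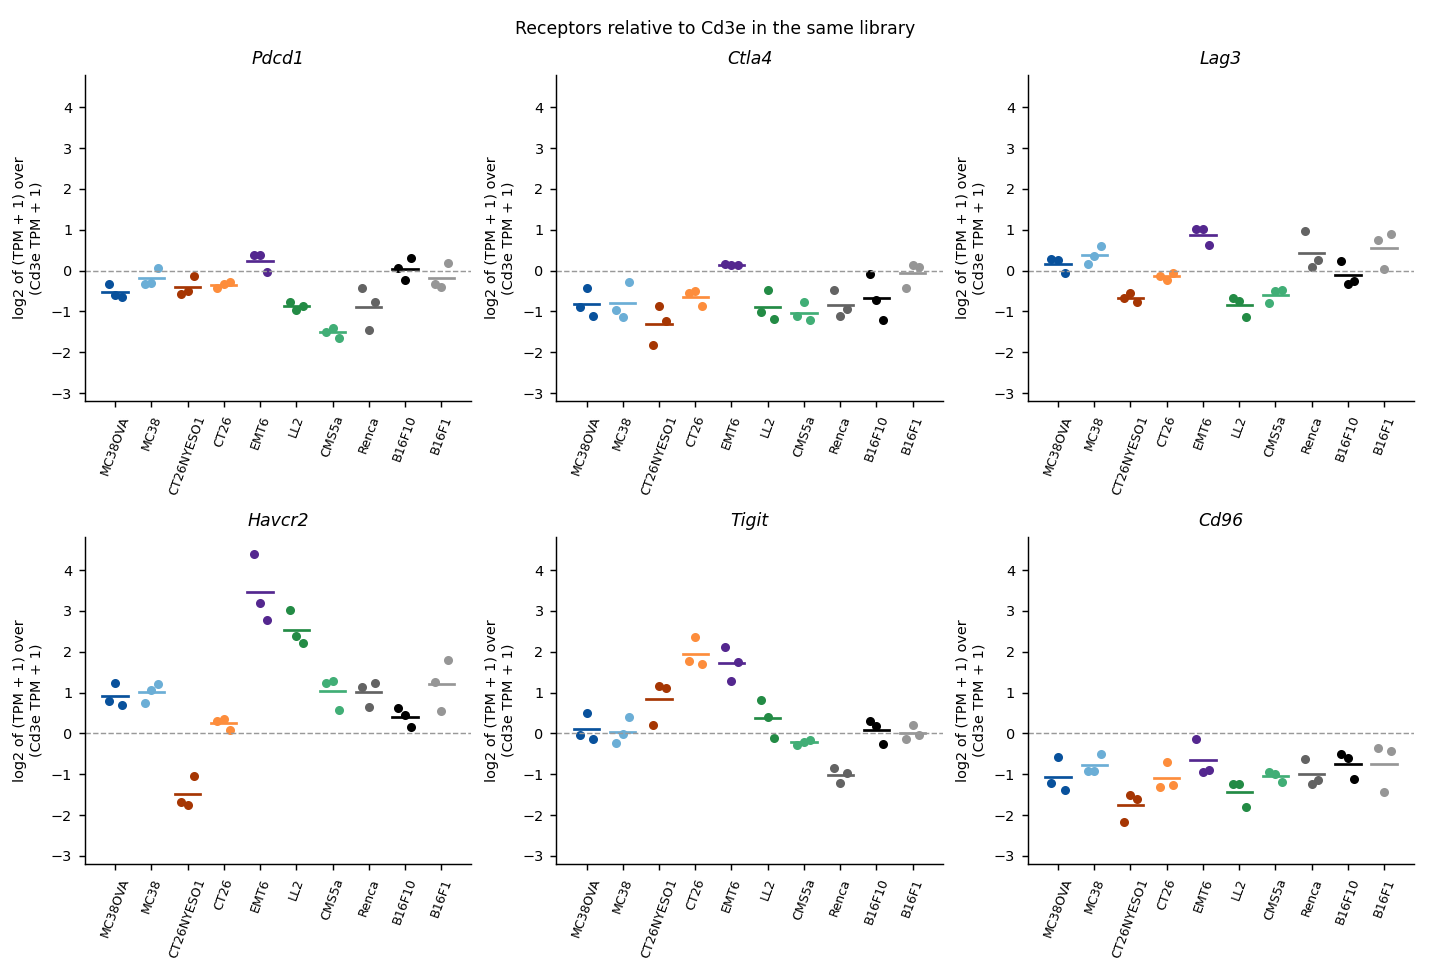
Log2 of (receptor TPM + 1) over (Cd3e TPM + 1) on the vertical axis, by tumour line on the horizontal axis; dots are the 3 libraries of a line, bars their means, and the dashed line marks equal values. Havcr2 spreads most, from EMT6 at the top to CT26NYESO1 at the bottom, Tigit is high in CT26 and EMT6 and low in Renca, and Cd96 changes least.

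The same genes were also set against the mean of 10 general leukocyte genes. On that scale 30 of the 100 combinations of member and line were called, where 39.7% of all combinations were. MC38OVA had 0 of 10 members called (limma), with 1 (Tox) at an unadjusted p under 0.05, where 81.3% of genes were called, nearly all of them lower. LL2 was lower in 8 of 10 members, all except Havcr2 and Vsir, where 56.5% of genes were lower. Tigit was the 1 member higher in CT26 (2.03 ± 0.29, 8.61% of genes) and the 1 lower in Renca (-2.08 ± 0.29, 4.65%). CT26NYESO1 was higher in Tigit (1.92 ± 0.29) and Pdcd1 (2 of 10, 7.35%) and lower in Havcr2 (1 of 10, 5.28%). CMS5a was lower in 5 of 10 (8.59%), among them Cd274 (-1.98 ± 0.35) and Pdcd1 (-1.57 ± 0.30). MC38 was higher in Pdcd1, Lag3 and Cd96 (3 of 10, 4.46%), 3 calls that were lost with Ptprc in place of the 10 genes. EMT6 was lower in Pdcd1, Cd96 and Tox (3 of 10, 23.3%). B16F1 was higher in Ctla4, Lag3 and Tox (3 of 10, 75.8%) and B16F10 in Pdcd1, Tox and Pdcd1lg2 (3 of 10, 69.8%), shares of members below that of all genes. Several of these calls lay near the threshold and were lost without 1 library. In B16F1 these were Ctla4 without replicate 2 (0.81) and Lag3 without replicate 1 (0.91), and in B16F10 Pdcd1 without replicate 3 (0.97) and Pdcd1lg2 without replicate 1 (0.98). In CMS5a they were Lag3 and Tigit, without replicate 1 (-0.89 and -0.97) or replicate 2 (-1.02 and -0.99). Pdcd1 in EMT6 was lost without EMT6 replicate 1 (-0.63) or MC38OVA replicate 1 (-0.99). Vsir was called in no line on this scale.

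The lines that carry a foreign antigen were compared with their parents. Between MC38OVA and MC38, 0 of 10 members were called, and 1.31% of genes were. At an unadjusted p under 0.05 there was 1 of 10 (limma), Vsir, and 11.2% of genes. Vsir was 33.0, 69.7 and 67.0 TPM in MC38OVA and 26.4, 18.1 and 25.1 TPM in MC38, a difference of 1.19 ± 0.34 (adjusted p 0.0650). It was called when both melanomas were left out of the fit (adjusted p 0.0144) or when any 1 of 5 libraries was, MC38OVA replicate 1, B16F1 replicate 1 or 2, or B16F10 replicate 1 or 3 (adjusted p 0.0108 to 0.0487). Cd274 (0.73 ± 0.45) and Pdcd1lg2 (0.47 ± 0.31) did not pass. Neither overlapped between these lines, but the share of all genes without overlap was not counted. The macrophage markers, at 761 to 1985 TPM in MC38OVA and 384 to 750 TPM in MC38, and Ptprc, at 154 ± 64.0 and 69.4 ± 19.9 TPM, moved in the same direction as Vsir, and their part was not tested.

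Between CT26NYESO1 and CT26, 0 of 10 members were called, and 2.27% of genes were. Havcr2, Pdcd1 and Tox were under an unadjusted p of 0.05, 3 of 10 (limma), and 14.2% of genes were. Pdcd1 was 9.78, 5.92 and 7.08 TPM in CT26NYESO1 and 3.95, 1.72 and 5.0 TPM in CT26 (0.97 ± 0.41, adjusted p 0.242). Cd3e was 14.9, 8.70 and 7.79 TPM in CT26NYESO1 and 5.64, 2.45 and 6.31 TPM in CT26, a difference of 1.01 ± 0.43 that was not called either. The ratio of Pdcd1 to Cd3e was then 0.655, 0.680 and 0.908 in CT26NYESO1 and 0.700, 0.705 and 0.791 in CT26. Tox differed by 0.64 ± 0.20 (adjusted p 0.0627). Without CT26 replicate 2, its lowest library, Havcr2 was called at -1.02 ± 0.30 (adjusted p 0.0471).

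Relative to Cd3e, Havcr2 was lower in CT26NYESO1 than in CT26 by -1.75 ± 0.56 (adjusted p 0.0372), the 1 call among 18 combinations of receptor and pair, where 5.06% of all such combinations of gene and pair were called. The TPM ratios were 0.267, 0.214 and 0.422 in CT26NYESO1 and 1.28, 1.40 and 1.08 in CT26, without overlap. The call was lost with a pseudocount of 0.1 (adjusted p 0.359), with no filter on low genes (0.0753), with the mean of 4 CD3 genes in place of Cd3e (0.0781), and without any 1 of 5 of the 6 libraries of this pair (0.0568 to 0.229), all except CT26NYESO1 replicate 3. With B16F1 replicate 2 and EMT6 replicate 1 removed, the calls numbered 3, Havcr2 (adjusted p 0.000668) and Tigit (-1.12 ± 0.42, adjusted p 0.0225) in CT26NYESO1 against CT26, and Havcr2 (-1.12 ± 0.47, adjusted p 0.0422) in B16F10 against B16F1. With B16F10 replicate 3 removed as well they numbered 2, both in CT26NYESO1 against CT26, Havcr2 (adjusted p 7.61e-05) and Tigit (adjusted p 0.00818).

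The change with ovalbumin minus the change with NY-ESO-1 was called for 0 of 10 members and 2.62% of genes. Havcr2 (1.15 ± 0.40, adjusted p 0.133), Vsir (1.08 ± 0.49) and Pdcd1lg2 (0.91 ± 0.44) were under an unadjusted p of 0.05 (limma), 3 of 10, as were 14.7% of genes. Without CT26 replicate 2, Havcr2 was called (1.43 ± 0.40, adjusted p 0.0435). Between B16F10 and B16F1, 0 of 10 members were called, and 20.9% of genes were. Havcr2 (-0.84 ± 0.28) and Vsir (-0.87 ± 0.34) had adjusted p of 0.0196 and 0.0463 (limma) but not the fold change, and were the 2 of 10 under an unadjusted p of 0.05, beside 47.4% of genes. Both were called with a pseudocount of 0.1 (-1.13 and -1.05). Without B16F1 replicate 1 the calls were 3 (Ctla4, Havcr2 and Vsir), and without B16F10 replicate 3 also 3 (Lag3, Havcr2 and Vsir). With B16F10 replicate 3, B16F1 replicate 2 and EMT6 replicate 1 removed together there were 0. The median-ratio scale shifted the median gene of this pair by 0.23 and took the share of higher genes among the calls to 35%, against 21.7%.

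The members were also compared with each other and with scores of marker genes, as correlations given for description. The points share the composition of each library, so no p is given. Over the 10 line means, Pearson's r with Cd3e was 0.89 for Pdcd1, 0.92 for Ctla4, 0.84 for Lag3, 0.78 for Tigit, 0.95 for Cd96 and 0.96 for Tox, but 0.34 for Havcr2 and 0.38 for Vsir. With the mean of 7 macrophage and monocyte genes it was 0.88 for Havcr2 and 0.97 for Vsir, and at most 0.67 for the other 8. Over the deviations of the 30 libraries from their line means, r with the macrophage score was 0.81 for Havcr2 and 0.88 for Vsir, and r with Cd3e was 0.65 and 0.53. Without the 2 lines farthest from the median of the score, r over lines was 0.81 for Havcr2 and 0.93 for Vsir. The relation was not particular to macrophage genes. General leukocyte genes gave 0.85 for Havcr2 and 0.94 for Vsir over lines, and 0.82 and 0.90 over deviations. Neutrophil genes gave 0.79 and 0.82 over lines.

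**Figure D4:**
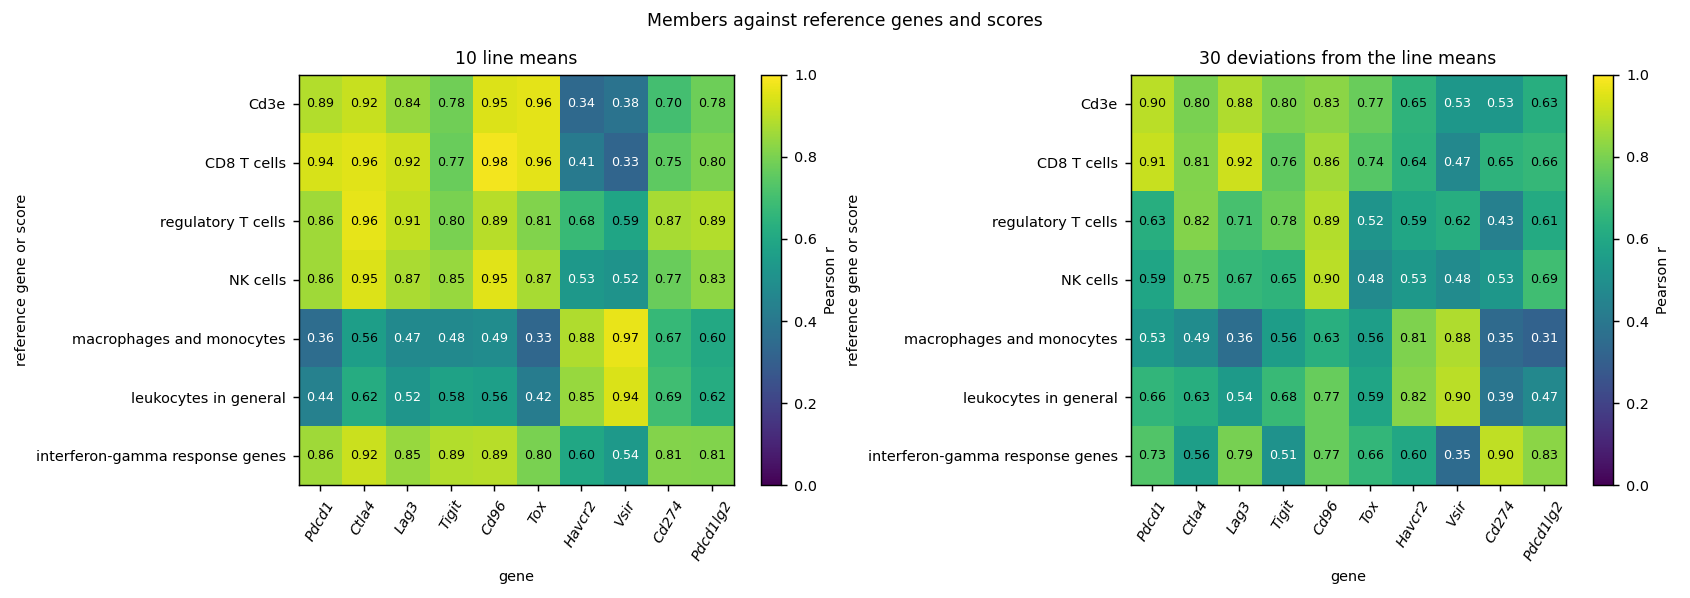
Pearson's r between each checkpoint gene (columns) and Cd3e or a score of marker genes (rows), over 10 line means at the left and over 30 deviations from the line means at the right; lighter is closer to 1. At the left, Pdcd1, Ctla4, Lag3, Cd96 and Tox have high values in the T and NK cell rows. At the right their values in these rows go down to 0.48, for Tox in the NK row. Havcr2 and Vsir have their highest in the macrophage row at the left. In the interferon-gamma row Ctla4 (0.92), Cd96 (0.89) and Tigit (0.89) are highest at the left and Cd274 (0.90) at the right.

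The correlation of Cd274 with interferon-gamma response genes was higher within lines than across them. Its r with the mean of 14 such genes (among them Irf1, Cxcl9 and Cxcl10) was 0.81 over lines and 0.90 over deviations within lines, and 0.64 and 0.85 without the 2 points farthest from the median. With the macrophage score it was 0.67 and 0.35. Over lines Cd274 had a higher r with the costimulatory list (0.92) and the regulatory T cell genes (0.87), but a lower one within lines (0.64 and 0.43). Pdcd1lg2 had 0.94 and 0.72 with the costimulatory list. It had 0.81 and 0.83 with the interferon-gamma genes, and 0.95 and 0.70 with Cd274, its neighbour on chromosome 19. Over lines 5 receptors had a higher r with this score than either ligand, Ctla4 (0.92), Cd96 (0.89), Tigit (0.89), Pdcd1 (0.86) and Lag3 (0.85), and over deviations within lines these had 0.51 to 0.79. CMS5a and Renca stood off this relation in opposite ways. CMS5a averaged 4.62 in the score, on the log2(TPM + 1) scale, above LL2 (4.21), and had the lowest Cd274 mean of the 10 lines. Renca averaged 3.25, between B16F1 (3.04) and B16F10 (3.40), and 11 of its 14 interferon-gamma genes were lower than in the other lines, but it had a Cd274 mean of 23.1 ± 7.05 TPM (fold change 0.04 ± 0.34, adjusted p 0.925).

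**Figure D5:**
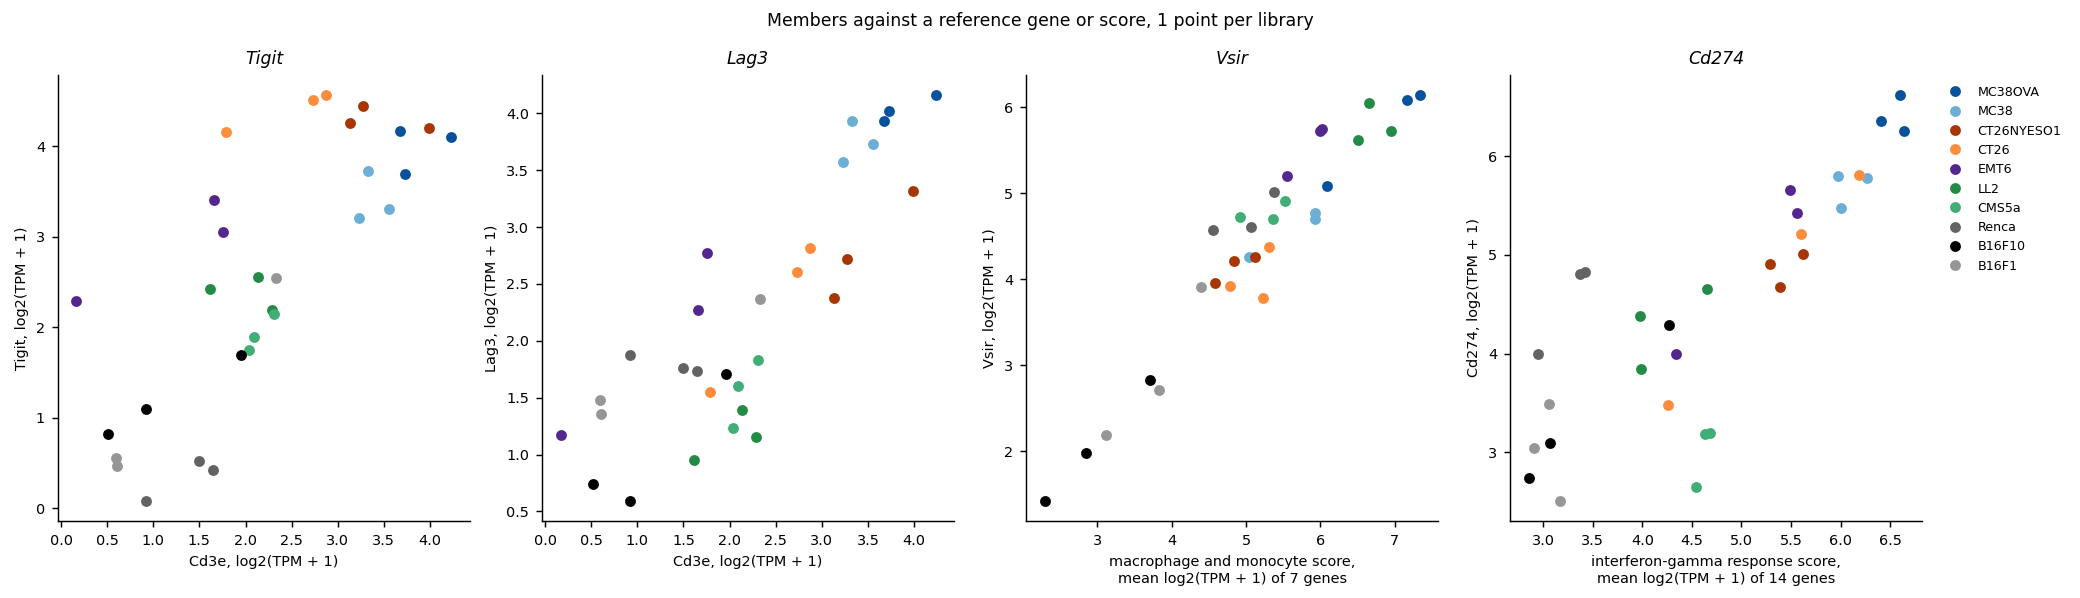
Level of 4 checkpoint genes in log2(TPM + 1) on the vertical axes against Cd3e or a mean score of marker genes on the horizontal axes, 1 point per library coloured by line. For Tigit, CT26 lies above the other points at its Cd3e level and Renca below. CT26NYESO1 replicates 2 and 3 also lie above, but its replicate 1 (17.4 TPM) is level with MC38OVA replicates 2 and 3 (17.0 and 16.2 TPM). Vsir rises along the macrophage score from B16F10 to MC38OVA. For Cd274 the CMS5a points lie below and the Renca points above the others at their score.

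The genes with the most similar order of lines were taken from 12740 genes whose line means span at least 1 on the log2 scale. Cd8a, a chain of the CD8 coreceptor, was nearest to Pdcd1 (r = 0.97 over 10 lines), followed by Klrh1 and Serpina3g (both 0.96). Tox was nearest to Klrh1 (0.98), then to Cd8a and Cd3e (both 0.96). Ctla4 was nearest to Icos (0.98), a costimulatory receptor of T cells, then to the chemokine receptors Ccr8 and Cxcr6. Cd96 was nearest to Cd8b1 (0.98), then to Eomes, a factor of CD8 T and NK cells, and Camk4 (both 0.98). Lag3 was nearest to Clec11a, Cxcr6 and Ido1. Tigit was nearest to Iigp1 (0.99), an interferon-inducible GTPase, followed by Cnih4 and Slc4a7. Havcr2 was nearest to Tbc1d9 (0.97), Cyp4f18 and Sdc3. Cd274 and Pdcd1lg2 were each other's nearest gene of all those compared (0.95), followed by Parp12 and Primpol for Cd274 and by Cish and Tnfsf4 for Pdcd1lg2. Vsir was nearest to Tyrobp (0.99), an adaptor of myeloid and NK receptors, with Ccr2, a monocyte chemokine receptor that is among the 7 macrophage markers, and Dok3.

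Of 71 other genes of these pathways, in 6 lists, 64 were tested and 64 differed among the lines, as did 85.5% of all genes. Of the 10 ligands of the member receptors, 3 were higher in MC38OVA, where 10.2% of genes were (median fold change 0.80 on the log2 scale, 0.05 over all genes). In MC38 1 was higher (8.24% of genes) and 1 lower (4.06%). CT26 had 3 higher (8.25%) and 1 lower (4.91%), and Renca 3 higher (12.4%) and 1 lower (10.5%). B16F1 had 1 higher (8.52%) and 4 lower (13.2%), and B16F10 1 higher (5.28%) and 3 lower (23.2%). LL2 had 1 higher (7.98%) and 2 lower (6.53%), and CMS5a 1 higher (9.23%) and 2 lower (4.49%). CT26NYESO1 had 1 higher (6.84%) and 1 lower (5.71%), and EMT6 1 lower (4.7%). The mean of these 10 ligands was highest in MC38OVA (4.34 on the log2(TPM + 1) scale) and then Renca (4.17). Its r over line means was 0.31 for Tigit to 0.62 for Lag3 among the 6 receptors. Nectin1, a nectin of the family that TIGIT and CD96 bind, was highest in CMS5a (51.5 ± 10.9 TPM) and lowest in B16F10 (0.0604 ± 0.0165 TPM, SD, n = 3). Igsf11, a ligand of VISTA, was highest in Renca (27.2 ± 9.14 TPM) and at 0 in all 3 LL2 libraries. Cd80, a ligand of CTLA-4, was highest in CT26 (18.3 ± 1.59 TPM) and lowest in B16F10 (0.636 ± 0.307 TPM), and Ceacam1, a ligand described for TIM-3, highest in CT26 (27.0 ± 3.23 TPM) and lowest in B16F1 (1.42 ± 0.494 TPM).

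Of 11 other inhibitory receptors tested, 9 were higher in MC38OVA (median 1.29, 10.2% of genes higher), 8 lower in B16F10 (-1.49, 23.2% of genes lower) and 7 lower in B16F1 (-1.09, 13.2%). LL2 had 4 higher (7.98%) and 1 lower (6.53%), Renca 1 higher (12.4%) and 4 lower (10.5%), and MC38 3 higher (8.24%). EMT6 had 2 higher (10.2%), CT26 2 higher (8.25%) and 1 lower (4.91%), and CT26NYESO1 1 higher (6.84%) and 1 lower (5.71%). Lilrb4a, a myeloid inhibitory receptor, was 295 ± 104 TPM in MC38OVA and 9.38 ± 3.57 TPM in B16F10, and Pilra, another, 46.2 ± 4.55 TPM in LL2 and 2.23 ± 1.23 TPM in B16F10. Sirpa, the receptor of CD47, was 471 ± 32.5 TPM in Renca and 33.7 ± 8.99 TPM in CT26NYESO1, and Klrc1, the NKG2A receptor of NK and CD8 T cells, 16.8 ± 6.31 TPM in MC38OVA and 0.368 ± 0.164 TPM in Renca. Of 7 other inhibitory ligands tested, 2 were higher in each of MC38OVA, Renca and LL2 (10.2%, 12.4% and 7.98% of genes). MC38, EMT6, CT26 and CMS5a had 1 higher each (8.24%, 10.2%, 8.25% and 9.23%). Each melanoma had 4 lower (23.2% in B16F10 and 13.2% in B16F1), CT26NYESO1 2 (5.71%), and Renca and CT26 1 each (10.5% and 4.91%). Cd24a was 429.7 ± 9.68 TPM in Renca and 2.43 ± 1.74 TPM in B16F1, and H2-T23, which encodes the NKG2A ligand Qa-1, 252 ± 52.2 TPM in EMT6 and 13.1 ± 5.75 TPM in B16F1. Tnfrsf14, the ligand of BTLA, was 37.6 ± 11.4 TPM in MC38OVA and 1.83 ± 0.861 TPM in B16F10, and Cd47 109 ± 17.9 TPM in CT26 and 12.9 ± 2.72 TPM in B16F10.

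Costimulatory genes were higher in MC38OVA in 9 of 11 (median 1.25, 10.2% of all genes) and in MC38 in 4 of 11 (0.90, 8.24%), and lower in B16F10 in 7 of 11 (-1.13, 23.2%). Renca had 2 higher (12.4%), B16F1 2 lower (13.2%), and CT26NYESO1 1 higher (6.84%) and 2 lower (5.71%). The remaining lines had at most 1 call in either direction. Tnfsf9, the 4-1BB ligand, was 30.5 ± 6.91 TPM in MC38 and 0.377 ± 0.207 TPM in CMS5a, and its receptor Tnfrsf9 84.5 ± 43.8 TPM in CT26 and 4.96 ± 1.74 TPM in B16F1. Cd40 was 29.5 ± 7.73 TPM in MC38OVA and 0.786 ± 0.814 TPM in B16F10, and Tnfrsf18, the GITR receptor, 12.2 ± 1.95 and 1.52 ± 0.559 TPM in the same lines. The interferon-gamma response genes were higher in 13 of 14 in MC38OVA (median 1.74) and 11 of 14 in MC38 (1.18), beside the same shares of all genes. They were lower in 11 of 14 in Renca (-1.61, 10.5% of genes), 11 in B16F1 (-2.02, 13.2%) and 12 in B16F10 (-1.43, 23.2%). CT26NYESO1 had 6 higher (6.84%), EMT6 4 (10.2%) and CT26 3 (8.25%), while LL2 had 4 lower (6.53%) and CMS5a 1 (4.49%). Cxcl10, a chemokine that draws T cells, was 942 ± 51.4 TPM in MC38OVA and 5.47 ± 1.55 TPM in Renca. Gbp2 was 447 ± 160 TPM in EMT6 and 13.8 ± 4.87 TPM in Renca, Gbp5 88.6 ± 15.1 TPM in MC38OVA and 2.40 ± 1.39 TPM in B16F1, and the peptide transporter gene Tap1 297 ± 13.9 TPM in MC38OVA and 12.5 ± 1.16 TPM in B16F1.

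The transcription factors of exhaustion and memory had calls in both directions in every line except LL2 and Renca. In MC38OVA 4 of 11 were higher (10.2% of genes) and 1 lower (3.59%), with a median of 0.61, and in Renca 4 were lower (10.5%). In B16F10 2 were higher (5.28%) and 5 lower (23.2%), and in B16F1 3 higher (8.52%) and 3 lower (13.2%). MC38 had 3 higher (8.24%) and 1 lower (4.06%), CT26 3 higher (8.25%) and 2 lower (4.91%), and EMT6 2 higher (10.2%) and 2 lower (4.7%). CT26NYESO1 had 1 higher (6.84%) and 1 lower (5.71%), CMS5a 1 higher (9.23%) and 1 lower (4.49%), and LL2 1 higher (7.98%). Eomes, which is also among the NK markers, was 10.9 ± 2.74 TPM in MC38OVA and 0.276 ± 0.167 TPM in B16F10. Nr4a3 and Nr4a1, immediate early factors that many cell types make, were highest in the melanomas, Nr4a3 with 39.2 ± 12.4 TPM in B16F10 and 0.694 ± 0.127 TPM in CT26NYESO1, and Nr4a1 with 60.5 ± 14.2 TPM in B16F1 and 8.38 ± 1.88 TPM in Renca. Id3, also made outside the immune system, was 104 ± 15.1 TPM in EMT6 and 0.219 ± 0.0669 TPM in B16F10. Since these libraries hold RNA of tumour cells, the cell source of these factors cannot be told apart.

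Lymphocyte markers were also highest in MC38OVA. The sum of 8 T cell genes was 79.5 to 124 TPM in MC38OVA, 55.6 to 87.8 TPM in MC38, 56.4 to 99.98 TPM in CT26NYESO1 and 26.8 to 28.6 TPM in Renca. That of 2 CD8 genes was 27.3 to 41.3 TPM in MC38OVA and 1.79 to 1.94 TPM in Renca, and that of 4 NK genes 53.0 to 153 TPM in MC38OVA and 2.26 to 4.85 TPM in Renca. The sum of 3 regulatory T cell genes was 5.21 to 10.9 TPM in MC38OVA and 0.490 to 1.30 TPM in Renca. Of these 4 sums only that of CD8 genes had its lowest mean in Renca. The mean T cell sum was 13.4 TPM in B16F10, 17.0 TPM in B16F1 and 21.4 TPM in LL2, against 27.4 TPM in Renca. The mean NK sum was 1.97 TPM in B16F10 and 2.81 TPM in B16F1, against 3.72 TPM. For regulatory T cell genes it was 0.486 TPM in B16F10, against 0.895 TPM. The part of these cells in the receptor levels was not tested beyond the values relative to Cd3e.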

How the data were processed

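The table holds TPM values for 30 libraries, deposited by the authors. Per the labels' protocols, RNA of single-cell suspensions went into stranded mRNA libraries. Per the submitters' processing notes the tools were Trim Galore 0.6.5, STAR 2.7.3a and StringTie 2.1.2 with the mouse genome mm10. The annotation and strand setting are not given in the sources used here. TPM sum to 1000000 in each library and keep no read counts, so more RNA of tumour cells lowers every other TPM, and no count test or depth was available.

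Here the deposited TPM were taken as log2(TPM + 1) and fitted with limma 3.58.1 (lmFit and eBayes with an intensity trend, R 4.3.3) over 17944 genes (those with 3 or more libraries reaching 1 TPM), with 1 mean per line and 20 residual degrees of freedom. The line means were compared jointly by an F test, singly against the 9 remaining lines, and within the 3 pairs of related lines, and the 2 antigen pairs were set against each other. Benjamini-Hochberg adjustment ran over all genes within each comparison, and a call needed an adjusted p under 0.05 with a change of 1 or larger on the log2 scale, in either direction. Ranges of libraries that overlap or do not are given as description, and the share of all genes without overlap was not counted. The fits were repeated after subtracting Cd3e or the mean of 10 leukocyte genes. The procedure was tested on simulated data. The choices varied were the pseudocount (0.1), the filter and the fold threshold (each dropped), the scaling (median ratio), the replicate number as a block, each library left out, the libraries that stand apart in T cell RNA left out together, both B16 lines or the related line left out, and other T cell or leukocyte references.

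All 10 members are named. Of each pathway list the 4 tested genes with the widest range of line means are named, and for each member the 3 genes with the highest r over lines, leaving out predicted genes and receptor segments. The members and lists were chosen with earlier results of these data known. Positions are from GENCODE M21 on mm10 and promoters from RefSeq GRCm38.p6. No protein sequence was used here. Results for 1 other item are not reported here. Figures were drawn with matplotlib 3.10.9.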

Additional observations from a re-analysis of the deposited data

How the results depend on the processing

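No direction reversed in any alternative run. With a pseudocount of 0.1 the lower member and line combinations numbered 28 (16 as reported), the calls between B16F10 and B16F1 2, and the receptor calls relative to Cd3e in the related pairs 0 (1 as reported). With no filter, and with the mean of 4 CD3 genes, the last count was also 0. With no fold threshold the lower combinations were 33, the B16F10 and B16F1 calls 2, and the leukocyte-relative combinations 47 (30 as reported). Without B16F1 replicate 2 and EMT6 replicate 1, an alternative chosen after seeing the data, there was 1 call between MC38OVA and MC38 (Vsir) and 3 relative to Cd3e in the pairs. Without B16F10 replicate 3 as well, also chosen after seeing the data, these were 1 and 2, and the F test relative to Cd3e called 6 receptors (3 as reported). The cause of these moves was not tested.

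Leaving out each library in turn gave 21 to 23 higher and 16 to 20 lower combinations, 28 to 33 relative to leukocyte genes, 6 to 8 relative to Cd3e and 2 to 4 receptors in the F test relative to Cd3e. The related pairs had 0 to 1 call for MC38OVA and MC38, 0 to 1 for CT26NYESO1 and CT26, 0 to 3 for B16F10 and B16F1, 0 to 1 for the difference of the antigen pairs and 0 to 1 relative to Cd3e. Of the 2280 refits of 76 single calls without 1 library, 23 lost the call. With both B16 lines left out, 9 of 61 lost it, among them Cd274 (0.97), Ctla4 (0.99) and Havcr2 (0.92) in MC38.

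Same-numbered libraries in related lines had correlations of -0.122 to 0.421 in their deviations from the line means. With 3 libraries per line these cannot tell whether the replicate numbers pair the samples. Fitting the number as a replicate block left all 12 counts within 1.5 times their value and every 1 of the 76 calls in place. Values near or under 1 TPM, as for Tox, are limited by the unknown depth.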
